A study of Mus musculus with 11 samples.

Results

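*Mmp13*, *Timp3*, and *Adamts9* are 3 of the 458 genes with values in either of the cell lines, and they were chosen by name as matrix-degrading proteases and an inhibitor of both. *Mmp13* and *Timp3* were followed in HaCa4 cells, where 290 genes are listed, and *Adamts9* and *Timp3* in LECs, where 191 are listed. All 3 had a value in every library of those lines, and no filter on low values was applied. *Mmp13* is also among the 23 genes listed for both lines, so its LEC values are given as well, although it was added for LECs after its values had been seen.

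Matrix metalloproteases are zinc-dependent enzymes that cells secrete as inactive precursors and that cut the proteins of the extracellular matrix. MMP13, or collagenase-3, cuts fibrillar collagen and is known from invading squamous carcinomas, and ADAMTS9 is a secreted relative that cuts the proteoglycans versican and aggrecan. TIMP3 is a tissue inhibitor of metalloproteases that stays bound to the matrix, blocks MMPs as well as ADAM and ADAMTS enzymes, and can also keep VEGF from its receptor VEGFR2.

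RNA was sequenced from cells grown alone or sorted after 24 h of co-culture, to learn how carcinoma cells and lymphatic endothelial cells change each other's expression. HaCa4 is a mouse skin squamous carcinoma cell line that carries oncogenic H-Ras, and the groups were HaCa4 control (n = 2) and HaCa4-sorted (n = 3). LECs are the mouse line imLEC, conditionally immortal dermal lymphatic endothelial cells with the H-2Kb-tsA58 transgene, whose thermolabile SV40 large T antigen is induced by IFN-γ. Their groups were LEC control (n = 3) and LEC-sorted (n = 3), and the transgene is carried by controls and sorted cells alike. The study used a pair of LEC clones as equivalent, and the labels do not tell which clone gave which library. HaCa4 cells were sorted by the dye CFSE and LECs by CD31, the product of *Pecam1*. Controls are labelled as single cultures, so effects of co-culture and of passage through the sorter cannot be told apart. The labels do not say that replicates were separate cultures, so p-values measure the spread between these libraries, which may be technical.

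Values are TPM, a measure of transcript number per gene that is scaled for gene length and library total. They carry no read numbers, so the depth is unknown and precision rests on the replicates. The listed genes are a selected part of the transcriptome, 1.84% to 3.85% of the TPM of a library, and their adjusted p-values are not independent evidence. Means were higher in LEC-sorted for 127 and lower for 64 of the 191 LEC genes. The study reported the same numbers of changed genes in LECs. If these are the same genes, calls and lack of overlap in LECs were largely fixed by that selection. Sorted and control libraries were compared by limma on log2(TPM + 1), a scale that understates the change of genes near 0. A gene is called when its absolute log2 fold change was at least 0.5 and its adjusted p (Benjamini-Hochberg over the listed genes of the line, two-sided) at most 0.05. In HaCa4, 15.9% of listed genes were called higher and 14.1% lower in the sorted cells, and in LECs 63.9% were called higher and 32.5% lower, so a call in LECs is the common case. Libraries of the compared groups did not overlap for 63.1% (higher) and 33.4% (lower) of the HaCa4 genes and for 63.9% and 33% of the LEC genes. Lack of overlap is therefore the common case in both lines.

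The members lie on different chromosomes of the mouse build GRCm38.p6. *Mmp13* (Entrez Gene 17386) is on the plus strand at chr9:7272514-7283333, at one end of a cluster of 10 matrix metalloprotease genes, of which 4 are listed for HaCa4 and 2 for LECs. *Timp3* (21859) is on the plus strand at chr10:86300412-86349505, within the span of *Syn3*, a gene on the opposite strand. In the GENCODE M21 annotation 1733 of the 8144 exonic bases of *Timp3* (21.3%) are also exonic in *Syn3*. *Adamts9* (101401) is on the minus strand at chr6:92772699-92944450, and 9.18% and 2.82% of its exonic bases are shared with *A730049H05Rik* and *Gm15737* on the other strand. Whether the libraries kept strand is not given in the sources used here, so reads from such shared exons cannot be assigned to one gene. No other annotated gene overlaps *Mmp13*.

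The promoters of the listed cluster genes and of the members are shown because the listed proteases of the cluster had changes of one sign in each line, as described further on. Each line gives the 150 bases before the annotated start (RefSeq, GRCm38.p6), read 5′ to 3′ on the strand of the gene, and capitals mark TGANTCA, the motif bound by AP-1 (Fos and Jun proteins).
*Mmp13*, chr9:7272364-7272513, plus strand: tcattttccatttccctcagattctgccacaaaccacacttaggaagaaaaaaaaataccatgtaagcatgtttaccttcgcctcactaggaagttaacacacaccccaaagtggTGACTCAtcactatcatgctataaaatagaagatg
*Mmp1b*, chr9:7388027-7388176, minus strand: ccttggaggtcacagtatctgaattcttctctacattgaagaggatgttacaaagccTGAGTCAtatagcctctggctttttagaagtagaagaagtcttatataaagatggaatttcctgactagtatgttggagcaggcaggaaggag
*Mmp3*, chr9:7445672-7445821, plus strand: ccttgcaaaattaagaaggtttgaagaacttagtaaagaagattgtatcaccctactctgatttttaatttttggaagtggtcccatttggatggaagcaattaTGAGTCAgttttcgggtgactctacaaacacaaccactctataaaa
*Mmp10*, chr9:7502192-7502341, plus strand: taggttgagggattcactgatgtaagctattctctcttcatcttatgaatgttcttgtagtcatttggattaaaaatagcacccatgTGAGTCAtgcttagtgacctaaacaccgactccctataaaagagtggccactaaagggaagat
*Timp3*, chr10:86300262-86300411, plus strand: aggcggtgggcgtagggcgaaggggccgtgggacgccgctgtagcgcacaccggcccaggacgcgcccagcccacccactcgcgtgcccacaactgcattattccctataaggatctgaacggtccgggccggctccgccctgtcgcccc
*Adamts9*, chr6:92943535-92943684, minus strand: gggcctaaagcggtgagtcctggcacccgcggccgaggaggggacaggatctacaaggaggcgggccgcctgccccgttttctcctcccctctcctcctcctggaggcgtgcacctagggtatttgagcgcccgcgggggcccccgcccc

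All 4 listed cluster genes hold the AP-1 motif in the window of 250 bases before to 50 after the start, searched on both strands. It begins 35 bases before the start of *Mmp13*, 46 before that of *Mmp3*, 63 before that of *Mmp10*, and 93 before that of *Mmp1b*. Among all 32851 promoters in the table, 7.81% hold it. Of the 18 matrix metalloprotease genes with a promoter in the table, 8 hold the motif, and all 8 (*Mmp1a*, *Mmp1b*, *Mmp3*, *Mmp7*, *Mmp10*, *Mmp12*, *Mmp13*, and *Mmp20*) belong to the chromosome 9 cluster. Of the 5 metalloprotease inhibitors and the 10 ADAMTS genes with a promoter there, 0 hold these letters. The RUNX motif AACCACA begins 119 bases before the start of *Mmp13* and occurs in 5.27% of all promoters. The windows also differ in base composition, with 1 CG dinucleotide in that of *Mmp13*, 24 in that of *Timp3*, and 25 in that of *Adamts9*, against a median of 7 over all promoters. The entry used for *Adamts9* is for a start inside the annotated span of the gene. A match is a description of letters and was not tied to any binding measurement.

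*Mmp13* fell in HaCa4 cells after co-culture, although in bulk RNA fewer cells with a transcript and less transcript per cell cannot be told apart. It was at 17.78 and 6.30 TPM in HaCa4 control replicates 1 and 2, and at 3.70, 2.42, and 1.94 TPM in HaCa4-sorted replicates 1 to 3. The groups do not overlap, but the controls differ from each other by more than the second control differs from the sorted libraries. Mean TPM went from 12.0 ± 8.12 (SD, n = 2) to 2.69 ± 0.91 (SD, n = 3), which is 4.48-fold lower. The log2 fold change was -1.70 (standard error, SE, 0.51, limma adjusted p = 0.0472). This call rested on every control and on 2 of the sorted libraries. It was lost without control replicate 1 (-1.01, adjusted p = 0.298), without control replicate 2 (-2.38, adjusted p = 0.161), without sorted replicate 2 (-1.66, adjusted p = 0.0675), and without sorted replicate 3 (-1.55, adjusted p = 0.0966), in limma fits in which a lone control was assumed to vary like the other group.

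*Timp3*, the inhibitor, had higher values in all sorted HaCa4 libraries. It was at 0.31 and 0.33 TPM in the control libraries, against 1.44, 2.14, and 2.11 TPM in HaCa4-sorted replicates 1 to 3. Each sorted library lies above both controls, and the controls agree closely. The mean was 0.32 ± 0.01 TPM (SD, n = 2) in the control and 1.90 ± 0.40 TPM (SD, n = 3) after sorting, 5.93-fold apart. The log2 fold change of 1.12 (SE 0.36, 95% confidence interval 0.24 to 2.01) did not pass the test (limma adjusted p = 0.0542). It passed without sorted replicate 1 (1.24, limma adjusted p = 0.0142) and with a pseudocount of 0.1 in place of 1 (2.23, adjusted p = 0.0330), but it was 0.37 with a pseudocount of 5 (adjusted p = 0.0641) and 0.78 after median scaling (adjusted p = 0.165), and the adjusted p was 0.268 and 0.271 without control replicate 1 and 2.

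**Figure D1:**
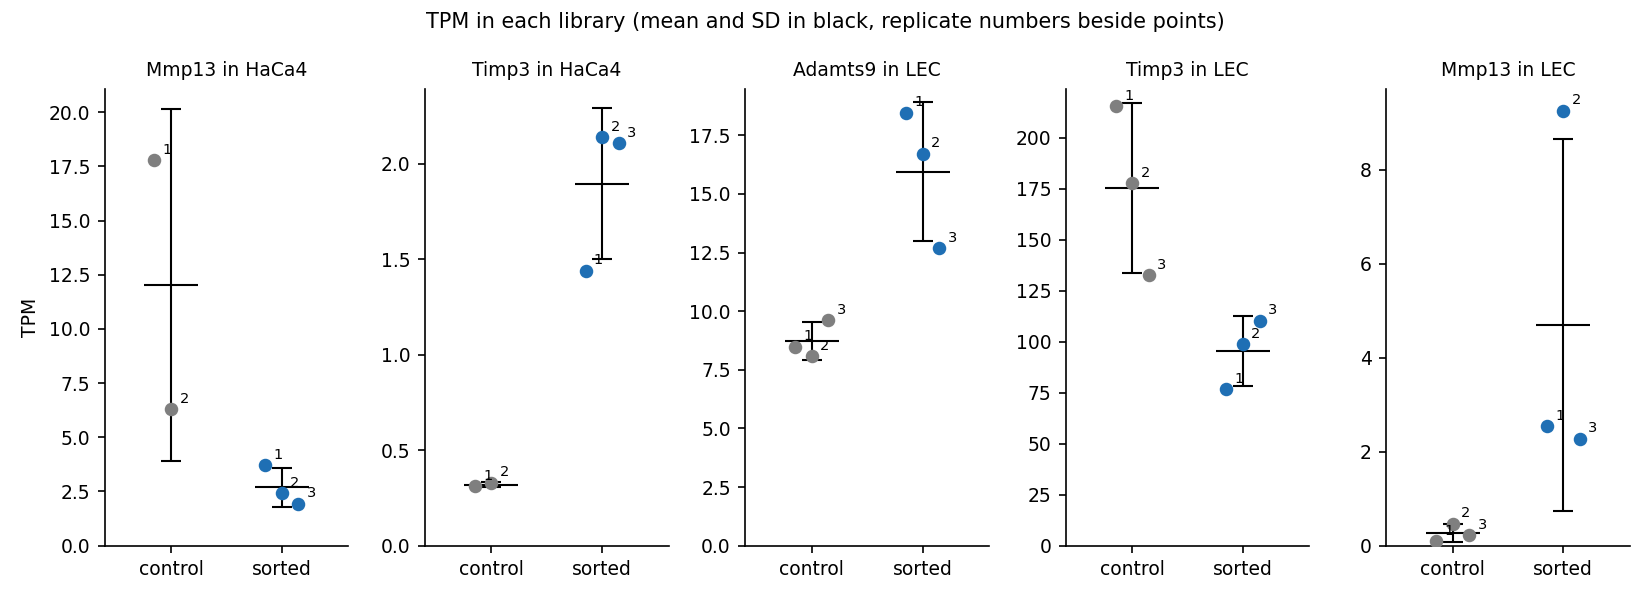
TPM (vertical axis, linear from 0, one scale per panel) in each control and sorted library for *Mmp13* and *Timp3* in HaCa4 and for *Adamts9*, *Timp3*, and *Mmp13* in LECs. Points are libraries with their replicate numbers, black bars are means with SD, and in each of the 5 panels the sorted libraries lie wholly above or wholly below the controls.

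The other listed matrix metalloproteases of HaCa4 cells also had lower values after co-culture, but none of them passed the test. Of the 23 genes in the matrix metalloprotease list 5 are listed for HaCa4, all 5 had a lower mean in HaCa4-sorted, and *Mmp13* was the 1 called. Their median log2 fold change was -0.94, against 0.74 over all 290 listed genes. Matrix metalloproteases without values here, such as *Mmp2*, were not analysed and may have changed in either direction. The shared direction therefore holds for the listed genes only. *Mmp10*, or stromelysin-2, was at 12.21 and 6.84 TPM in the control libraries, against 4.98, 2.26, and 1.63 TPM in sorted replicates 1 to 3 (log2 fold change -1.45, limma adjusted p = 0.0563). *Mmp3*, or stromelysin-1, which cuts many matrix proteins and activates other MMP precursors, was at 17.90 and 14.95 TPM in the control libraries, against 8.58, 11.53, and 5.40 TPM after sorting (-0.92, limma adjusted p = 0.0633). *Mmp1b*, an interstitial collagenase homologue, was at 4.65 and 5.50 TPM and then at 1.82, 2.79, and 1.96 TPM (-0.94, limma adjusted p = 0.0818). *Mmp1b* has a close paralogue in the cluster, *Mmp1a*, so its reads may be divided between both. *Mmp9*, or gelatinase B, had 0.83 and 0.95 TPM in the control libraries, against 0.36, 0.24, and 0.21 TPM in the sorted libraries (-0.57, limma adjusted p = 0.127). For all 4 of these genes the sorted libraries lie below both controls. The same held for 33.4% of all 290 listed HaCa4 genes, while for 63.1% the sorted libraries lay above both controls. Lack of overlap is thus not particular to these genes. Summed over the 5 genes, the level was 53.37 and 34.54 TPM in the control libraries, against 19.44, 19.24, and 11.14 TPM after sorting.

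In LECs the listed proteases rose and the listed inhibitors fell. *Adamts9* rose from 8.49, 8.07, and 9.61 TPM in LEC control replicates 1 to 3 to 18.47, 16.72, and 12.68 TPM in LEC-sorted replicates 1 to 3. The lowest sorted library, replicate 3, was still above the highest control. The mean went from 8.72 ± 0.80 to 16.0 ± 2.97 TPM (SD, n = 3 each), 1.83-fold higher, with a log2 fold change of 0.79 (SE 0.22, limma adjusted p = 0.0119). Leaving out any 1 library kept the call. Scaling libraries to one median over the listed genes, which shifted LEC changes by a median of -0.61, left a log2 fold change of 0.21 (limma adjusted p = 0.446), so the rise of *Adamts9* was close to that of the listed genes as a whole, whose median was 0.87.

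*Timp3* fell in LECs. It was an abundant transcript there, at 215.78, 177.76, and 132.80 TPM in the control libraries, against 76.71, 98.96, and 110.39 TPM in LEC-sorted replicates 1 to 3. The groups do not overlap, and control replicate 3 and sorted replicate 3 are the nearest libraries of the groups. The mean went from 175 ± 41.5 to 95.4 ± 17.1 TPM (SD, n = 3 each), 1.84-fold lower, with a log2 fold change of -0.86 (SE 0.23, limma adjusted p = 0.01003). The call was kept without any 1 of the 6 libraries and after scaling (-1.49).

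*Timp2*, the only other inhibitor of the list of 5 with LEC values, fell as well. It was at 453.38, 587.01, and 487.16 TPM in the control libraries, against 194.97, 317.90, and 296.50 TPM in the sorted libraries (log2 fold change -0.94, SE 0.22, limma adjusted p = 0.00785). All sorted libraries lie below all controls. TIMP2 inhibits MMPs and also takes part in the activation of the MMP2 precursor at the cell surface, and *Mmp2* itself was not analysed here. The summed level of *Timp2* and *Timp3* was 619.96 to 764.77 TPM in the LEC controls and 271.68 to 416.86 TPM in LEC-sorted.

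Both matrix metalloproteases with LEC values rose. *Mmp13* was at 0.10, 0.47, and 0.22 TPM in the control libraries, against 2.55, 9.26, and 2.28 TPM in LEC-sorted replicates 1 to 3. Replicate 2 stood far above the others, while all sorted libraries exceeded all controls. The log2 fold change was 1.97 (SE 0.46, limma adjusted p = 0.00768), and 1.44 without sorted replicate 2 (limma adjusted p = 0.00569). *Mmp3* was at 7.23, 14.18, and 11.06 TPM in the control libraries, against 55.84, 91.28, and 35.84 TPM after sorting, with no overlap. The log2 value of this change was 2.33 (SE 0.38, limma adjusted p = 0.00262), and its fold over the control mean was 5.63. Of the 57 genes in the lists of MMPs, ADAMTS and ADAM proteases, and their inhibitors, 5 are listed for LECs, with the 3 proteases called higher and the 2 inhibitors called lower. Among all 191 listed LEC genes 63.9% were called higher and 32.5% lower, so being called is not particular to these 5.

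**Figure D2:**
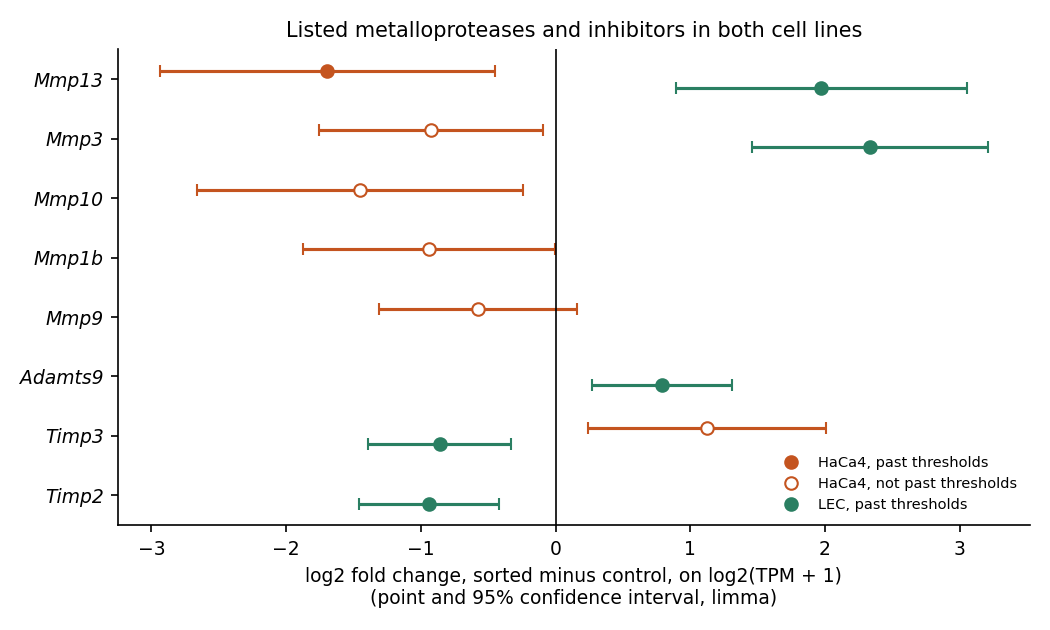
Log2 fold change (horizontal axis, sorted minus control on log2(TPM + 1), limma) with its 95% confidence interval for each listed metalloprotease and inhibitor, HaCa4 in orange and LECs in green, filled where the gene was called. HaCa4 proteases lie left of 0 with *Timp3* on the right, and LEC proteases lie right of 0 with *Timp3* and *Timp2* on the left.

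The difference between the cell lines was tested for the genes listed for both, with a limma interaction term over the 11 libraries. Of the 23 genes 82.6% passed this test, so passing it is not particular to the proteases. The change of *Timp3* in LECs minus that in HaCa4 was -1.99 on the log2 scale (SE 0.38, limma adjusted p = 0.000931). For *Mmp13* the change in LECs exceeded that in HaCa4 by 3.67 (SE 0.67, limma adjusted p = 0.000931), and for *Mmp3* by 3.26 (SE 0.55, limma adjusted p = 0.000859). All 3 differences kept their direction and their call under every alternative run.

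The levels of each gene can be ordered over the 4 groups, with the reservation that TPM is scaled within each library. *Timp3* was highest in LEC control, then LEC-sorted, then HaCa4-sorted, and lowest in HaCa4 control, with no overlap between neighbours in this order. *Mmp13* was highest in HaCa4 control (12.0 TPM), followed by LEC-sorted (4.70 ± 3.95 TPM, SD, n = 3), HaCa4-sorted (2.69 TPM), and LEC control (0.26 ± 0.19 TPM, SD, n = 3). LEC-sorted libraries overlap with both HaCa4 groups for *Mmp13*, so these neighbours do not differ beyond their spread, whereas HaCa4-sorted and LEC control do not overlap.

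Protease and inhibitor were also compared within each library. The ratio of *Mmp13* to *Timp3* was 57.4 and 19.1 in the HaCa4 controls, and 2.57, 1.13, and 0.92 in HaCa4-sorted replicates 1 to 3. On the log2(TPM + 1) scale the difference between both genes went from 3.15 ± 0.98 (SD, n = 2) to 0.33 ± 0.54 (SD, n = 3), a change of -2.82 with no overlap. *Timp3* was under 1 TPM in the controls, and this change depended on the pseudocount and was -4.22 and -1.44 with pseudocounts of 0.1 and 5. In LECs the ratio of *Timp3* to *Adamts9* was 25.4, 22.0, and 13.8 in the controls, and 4.15, 5.92, and 8.71 after sorting. The log2 difference went from -4.16 ± 0.45 to -2.51 ± 0.51 (SD, n = 3 each), a change of 1.65. The ratio of *Timp3* to *Mmp3* in LECs was 29.8, 12.5, and 12.0 in the control libraries, and 1.37, 1.08, and 3.08 after sorting, so their levels came close to each other. *Mmp13* was far below *Timp3* in LEC-sorted, with ratios of *Timp3* to *Mmp13* of 30.1, 10.7, and 48.4. Each ratio separated its groups completely, and the exact permutation test gave p = 0.1 (two-sided), which is the smallest p that 3 against 3 or 2 against 3 libraries allow. The protease and *Timp3* of each ratio already separated the groups in opposite directions. Complete separation of the ratio was therefore fixed in advance and adds no evidence beyond the single genes.

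**Figure D3:**
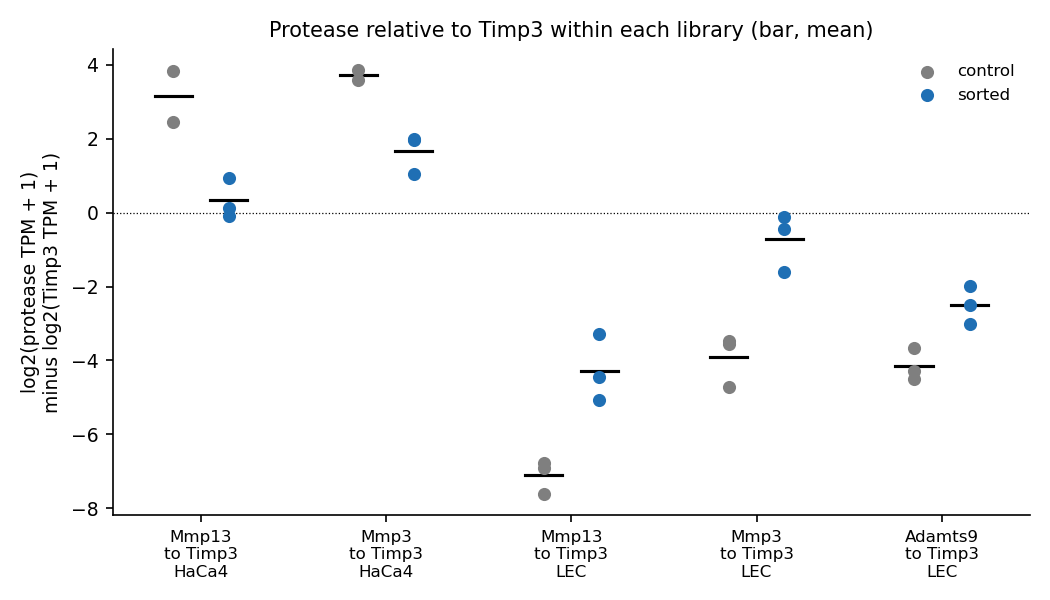
Log2(TPM + 1) of a protease minus that of *Timp3* within each library (vertical axis), controls in grey and sorted libraries in blue, with the mean as a bar. In HaCa4 the sorted libraries lie below the controls for *Mmp13* and *Mmp3*, and in LECs they lie above them for *Mmp13*, *Mmp3*, and *Adamts9*.

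The listed genes of the chromosome 9 cluster had the same sign within a line. The nearest ends of *Mmp1b*, *Mmp3*, and *Mmp10* lie 95.2, 173, and 230 kb from the start of *Mmp13*, and in HaCa4 all 4 had negative log2 fold changes of -0.92 to -1.70. These signs were the same after median scaling, which itself shifted HaCa4 changes by a median of -0.72. In LECs both cluster genes with values, *Mmp13* and *Mmp3*, were positive. No other protein-coding gene within 500 kb of *Mmp13*, and none within 500 kb of *Timp3* or *Adamts9*, had values.

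**Figure D4:**
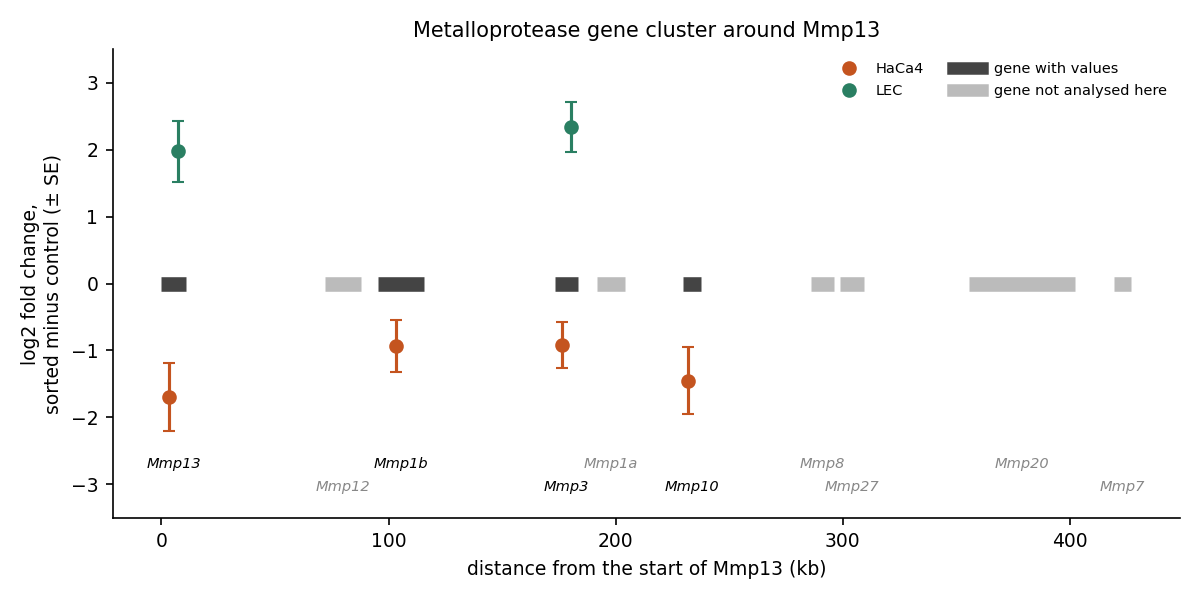
Log2 fold change with its standard error (vertical axis) of the matrix metalloprotease genes around *Mmp13*, placed by distance from its start in kb, with gene spans drawn at 0 (dark where values exist, pale where not analysed here). The 4 HaCa4 values (orange) lie below 0 and the 2 LEC values (green) above it.

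Markers of the partner cell were higher in each sorted population, and their level differed between replicates. Of 32 endothelial marker genes 19 are listed for HaCa4, and all 19 had higher means after co-culture, with 2 called. Among all 290 listed HaCa4 genes 192 had higher means and 46 were called higher. A listed gene at 0 in the controls can only be higher after co-culture, so the direction of such markers was fixed in advance. The sum of the 19 was 4.06 and 3.10 TPM in the control libraries, against 19.59, 291.87, and 127.95 TPM in HaCa4-sorted replicates 1 to 3. In the controls 10 and 9 of the 19 were at 0, *Cdh5* and *Emcn* in both, and 0 were at 0 in the sorted libraries. *Timp3* is far more abundant in LECs, so its HaCa4 values were set beside those of the other genes listed for both lines whose HaCa4 control mean was under 1% of the LEC control mean, a rule chosen after seeing the data that gave *Adm*, *Gas6*, *Kdr*, *Mest*, and *Sfrp1*. In HaCa4-sorted replicate 1 *Timp3* was at 1.51% of the LEC-sorted mean, above the range of these 5 genes (0.0746% to 0.839%). In replicate 2 it was at 2.24%, within their range (1.80% to 2.39%), and in replicate 3 it was at 2.21%, above their range (0.771% to 1.15%). This depended on the reference. As a percent of the LEC control mean, *Timp3* lay within the range of the 5 genes in every sorted replicate. It was at 0.821% (range 0.0445% to 1.68%), 1.22% (0.897% to 4.79%), and 1.20% (0.460% to 2.23%) in replicates 1 to 3. *Timp3* differed less between the sorted replicates than the marker sum did. The part of LEC RNA in the *Timp3* values was not tested. Without replicate 2, the library with the highest marker sum, the log2 fold change of *Timp3* was 1.06 (limma adjusted p = 0.0681).

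The LEC-sorted levels of *Mmp13* and *Mmp3* were near or above those of HaCa4-sorted. The keratin gene *Krt8*, taken from the keratinocyte marker list, was far below its HaCa4-sorted level. Of the 28 genes in that marker list only *Krt8* is listed for LECs, at 0 in all controls and at 0.19, 2.19, and 0.89 TPM in LEC-sorted, or 0.0859%, 0.990%, and 0.402% of its HaCa4-sorted mean. *Mmp13* in LEC-sorted was at 94.9%, 345%, and 84.9% of the HaCa4-sorted mean, and *Mmp3* at 657%, 1073%, and 421%. Unlike *Krt8*, both were already present in the LEC controls. There *Mmp13* was at 3.72%, 17.5%, and 8.19% of the HaCa4-sorted mean, and *Mmp3* at 85.0%, 167%, and 130%. The other genes listed for both lines with a LEC control mean under 1% of that in HaCa4, *Cxcl3* and *Tnfrsf9*, reached 2.63% to 17.5% and 4.27% to 6.29%. The part of HaCa4 RNA in *Mmp13* and *Mmp3* of LEC-sorted was not tested beyond these values. The 3 genes of the keratinocyte marker list with HaCa4 values (*Krt6b*, *Dsg3*, and *Krt8*) had a summed level of 310.83 and 399.66 TPM in the controls and of 214.99 to 246.43 TPM after sorting. Most of this sum was *Krt8*, at 283.80 and 380.41 TPM in the controls. The endothelial markers listed for LECs were *Kdr* and *Clec14a* alone, and both fell in LEC-sorted, so the LEC label could be checked with these only.

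**Figure D5:**
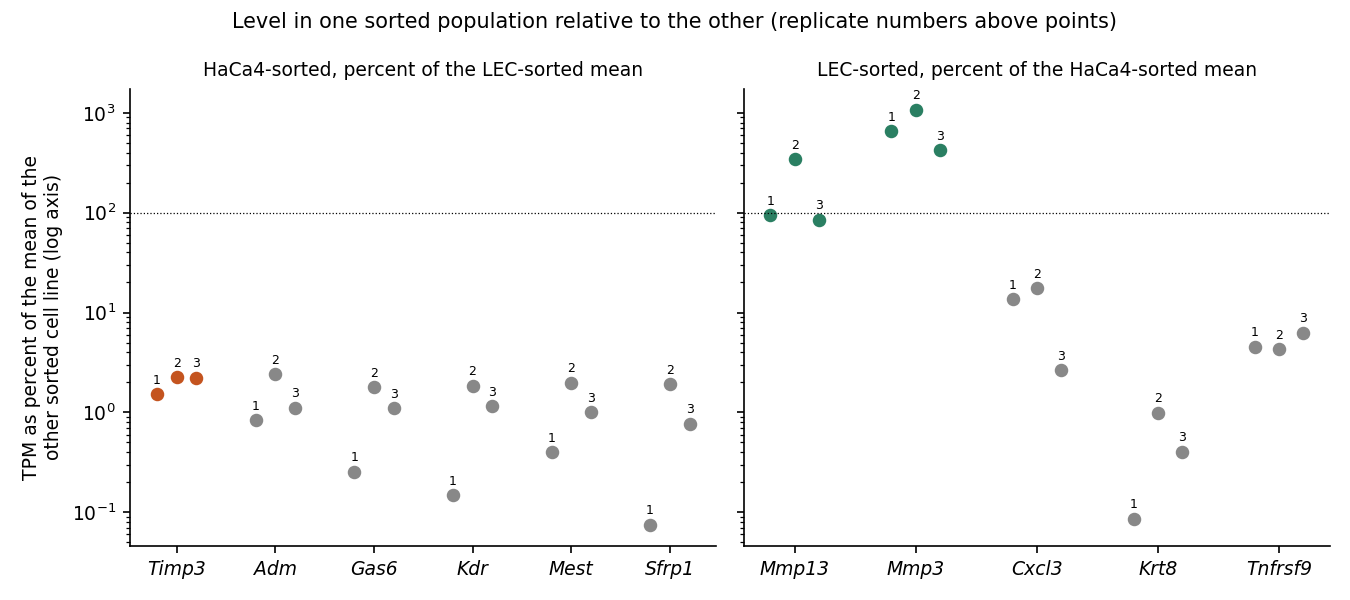
TPM in each sorted library as a percent of the mean of the other sorted cell line (vertical log axis), HaCa4-sorted on the left and LEC-sorted on the right, with replicate numbers over the points and the genes that are low in the control of that line in grey. *Timp3* lies above the grey genes in HaCa4-sorted replicates 1 and 3 and among them in replicate 2, and *Mmp13* and *Mmp3* in LEC-sorted lie far above *Krt8*.

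Genes of neighbouring protease systems were few among those listed. *Tfpi2*, an inhibitor of plasmin and other serine proteases, was at 0 in either control but at 0.32, 4.48, and 1.62 TPM in HaCa4-sorted replicates 1 to 3 (limma adjusted p = 0.0925), the same order of replicates as the endothelial marker sum. *Ctsl*, the lysosomal protease cathepsin L, was at 1249 and 1475 TPM in the HaCa4 control libraries, against 1090, 1078, and 1004 TPM after sorting (-0.36, limma adjusted p = 0.0613).

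Among the substrates, *Spp1* fell in HaCa4 and *Dcn* rose in LECs. *Spp1* encodes osteopontin, a secreted glycoprotein that MMPs cut, and went from 4754 and 4855 TPM to 3024, 1850, and 2994 TPM (log2 fold change -0.91, SE 0.25, limma adjusted p = 0.0405). This call was lost without either control (adjusted p = 0.120 and 0.196) or sorted replicate 3 (adjusted p = 0.0827). *Dcn* encodes decorin, a small collagen-binding proteoglycan, and went from 0.07, 0.60, and 0.26 TPM in the LEC controls to 13.56, 88.88, and 30.08 TPM (4.73, SE 0.61, limma adjusted p = 0.00124). *Bgn*, the related biglycan, had 0.10 and 0.15 TPM in the HaCa4 control libraries, against 0.33, 3.80, and 4.03 TPM in HaCa4-sorted (limma adjusted p = 0.0925). Of 19 collagen genes 0 are listed for either line, so whether collagen transcripts changed cannot be read from these values.

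Of 10 genes for AP-1 subunits and *Runx2*, 1 is listed for HaCa4 and 2 for LECs. *Fosl2*, which encodes the AP-1 subunit FRA2, rose in LECs from 105.09, 64.95, and 93.10 TPM to 150.71, 138.09, and 162.19 TPM (log2 fold change 0.80, SE 0.20, limma adjusted p = 0.00951), and this call was lost after median scaling (0.17). In HaCa4 *Fosl2* was at 35.52 and 24.76 TPM and then at 52.40, 37.68, and 45.66 TPM, a log2 fold change of 0.58 that did not pass (limma adjusted p = 0.0633) and turned to -0.26 after median scaling. *Fosb*, another AP-1 subunit, fell in LECs from 15.29, 6.49, and 3.40 TPM to 1.05, 2.61, and 1.40 TPM (-1.64, SE 0.49, limma adjusted p = 0.0142).

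*Kdr*, the gene for VEGFR2, to which TIMP3 can block binding of VEGF, fell in LECs together with *Timp3*. It was at 147.29, 171.50, and 136.83 TPM in the control libraries, against 88.48, 97.37, and 116.71 TPM after sorting (log2 fold change -0.59, SE 0.17, limma adjusted p = 0.0126). Without control replicate 2 the log2 fold change was -0.50, just short of the size threshold. In HaCa4 *Kdr* was at 0.05 and 0 TPM in the control libraries, against 0.15, 1.87, and 1.16 TPM after sorting, and *Flt4*, the gene for VEGFR3, was at 0 in either control but at 0.23, 5.36, and 2.13 TPM. Neither passed the test in HaCa4 (limma adjusted p = 0.118 and 0.0980). Both genes are in the endothelial marker list, and their HaCa4-sorted replicates had the same order as the endothelial marker sum. The part of LEC RNA in these values was not tested.

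The listed genes whose pattern was most like each member were taken by the root mean square difference of log2(TPM + 1) values centred over the libraries of a line, as a description over 5 or 6 libraries. For *Mmp13* in HaCa4 these were *Mmp10* (0.28), the keratin gene *Krt6b* (0.38), and *Tnip3* (0.43). For *Timp3* in HaCa4 they were *Cobl* (0.07), *Dhrs9* (0.12), and *Ppfibp2* (0.16). *Dhrs9*, a retinol dehydrogenase, was at 12.63 and 10.42 TPM in the control libraries, against 20.66, 24.69, and 25.89 TPM after sorting, with sorted replicate 1 the lowest as for *Timp3*. For *Adamts9* in LECs they were *Socs3* (0.10), an inhibitor of cytokine signalling, the lysophosphatidic acid receptor gene *Lpar1* (0.10), and *Fgfr1op* (0.10). *Socs3* went from 38.07, 40.69, and 43.39 TPM to 83.28, 86.68, and 64.22 TPM, with sorted replicate 3 the lowest as for *Adamts9*. For *Timp3* in LECs they were *Sfrp1* (0.12), which encodes a secreted Wnt antagonist, *Impact* (0.13), and *Fhdc1* (0.17). For *Mmp13* in LECs they were *Selp* (0.27), the gene for the adhesion molecule P-selectin, *Mmp3* (0.34), and the interleukin-13 receptor gene *Il13ra2* (0.39). *Selp* went from 64.18, 115.12, and 66.23 TPM to 213.66, 549.90, and 288.45 TPM, again with replicate 2 the highest.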

How the data were processed

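RNA of 11 libraries was analysed. Reads were cleaned by the authors with SOAPnuke and mapped with HISAT2 2.0.4 to GRCm38.p6 (processing notes of the submitters), and the authors deposited TPM values per gene and library, rounded to 2 decimals, with replicates unpooled. DESeq2 was the authors' test. The tool that made the TPM is not given in the sources used here. The second HaCa4 control is labelled replicate 2, while its deposited column carries the number 3.

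The members, lists, and tests were chosen with earlier results of these data known. Named genes were the members, every listed gene of the lists, the 3 genes most like each member, and listed neighbours within 500 kb. A result that needs a withheld item is not reported here. Comparisons used limma 3.58.1 in R 4.3.3 on log2(TPM + 1) (empirical Bayes, variance trend), within the libraries of a line and without a replicate block, because TPM values cannot enter a count model. Tested on simulated data with log2 changes of 1 or 2, the step recovered 60.3% of changed genes with the 290 HaCa4 genes and 81.4% with the 191 LEC genes, and 2.54% and 2.15% of its calls were false. In the simulation a random part of the genes changed, up and down alike, with noise independent between genes. Most listed LEC genes were called here, and many markers differed together between sorted HaCa4 libraries, so these rates need not hold for the data. Alternatives were pseudocounts of 0.1 and 5, a filter on a mean of 1 TPM, median scaling, no trend, a replicate block, and leaving out each library. No pair of replicate libraries was identical (at most 5 genes with the same value above 0). Promoters came from RefSeq, and exon overlaps from GENCODE M21, both on GRCm38. Tables and plots used Python 3.11.15, pandas 2.3.3, and matplotlib 3.10.9.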

Additional observations from a re-analysis of the deposited data

Results flagged for a closer look

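The changes of *Timp3*, *Mmp13*, and *Mmp3* after co-culture differed between the cell lines in the limma interaction term. Of the 23 genes listed for both lines 82.6% passed this test, so passing it does not single these genes out. The change in LECs minus that in HaCa4 was -1.99 for *Timp3*, 3.67 for *Mmp13*, and 3.26 for *Mmp3* on the log2(TPM + 1) scale. In HaCa4 only that of *Mmp13* was itself called (-1.70), while *Timp3* (1.12) and *Mmp3* (-0.92) were not.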

How the results depend on the processing

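In LECs the calls of *Timp3* and *Mmp13* held in every alternative, and *Adamts9* lost its call only when libraries were scaled to one median (0.21, adjusted p = 0.446 from limma). In HaCa4 *Mmp13* kept its direction throughout but lost its call with a pseudocount of 5 (-1.07), without the trend (-1.70, adjusted p = 0.0735 from limma), and with a replicate block that numbers the second control 3 (-1.66), with a range of -2.38 to -1.01 when 1 library was left out. *Timp3* in HaCa4 ranged from 1.06 to 1.24 when 1 library was left out, was called with a pseudocount of 0.1 (2.23) and without sorted replicate 1, and was 0.37 with a pseudocount of 5 and 0.78 after median scaling, neither of them called. The median scaling lowered HaCa4 changes by a median of -0.72, and because the listed genes are a selection it gives no neutral reference. *Fosl2* in HaCa4 reversed under it (-0.26).

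The number of called HaCa4 genes was 87, and 177 and 33 with pseudocounts of 0.1 and 5, 145 after median scaling, 22 with the block that numbers the second control 3, and 0 without the trend, where limma gave 161 an unadjusted p under 0.05. It was 0 without control replicate 2 and without sorted replicate 3 (70 and 126 genes with an unadjusted p under 0.05), and 194 without sorted replicate 1. In LECs it was 184, ranged from 165 to 177 when 1 library was left out, and was 110 after median scaling.

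The *Mmp13* to *Timp3* ratio changed by -4.22 and -1.44 in HaCa4 and by 4.42 and 1.64 in LECs with pseudocounts of 0.1 and 5.

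Replicate numbers were not taken as pairs. Deviations of same-numbered libraries correlated across genes at 0.23 and 0.28 in HaCa4 and at 0.23, 0.07, and -0.02 in LECs. With a replicate block *Mmp13* and *Timp3* in HaCa4 had log2 fold changes of -1.55 and 1.07 (adjusted p = 0.0122 and 0.247 from limma), *Adamts9* and *Timp3* in LECs 0.79 and -0.86, and 115 and 182 genes were called.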
